A study of Mus musculus with 6 samples.

Results

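The transcription factors Nfe2l1 and Nfe2l2 (also called Nrf2), the repressor Keap1 and 7 of the genes that respond to oxidants were examined in aortic endothelial cells (EC) that overexpressed Meis1. The 10 genes are Nfe2l1, Nfe2l2, Keap1, Hmox1, Nqo1, Gclc, Gclm, Txnrd1, Srxn1 and Osgin1. They were chosen by symbol among the 54429 genes of the deposited count table. All 10 were found and all 10 passed the filter on low counts, which kept 16065 genes.

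Primary aortic EC of adult wild-type C57BL/6 mice were transduced with a lentiviral Meis1 overexpression vector (Meis1-OE) or with the YFP vector alone (YFP-CTRL), with 3 libraries per condition. Both conditions shared the transduction, which was stopped at 48 h, the sort at 72 h for YFP+CD31+VEC+ cells, and the growth to confluency that followed. The cells came from a commercial supplier, and the replicates are described as independent, but it is not stated whether they came from separate animals or lots. The p-values therefore measure the spread between these libraries, which may be partly technical.

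In unstressed cells Keap1 holds Nfe2l2 and hands it to a Cul3 ubiquitin ligase, so that the factor is degraded. Oxidants and electrophiles modify Keap1, and Nfe2l2 then accumulates, pairs with small Maf proteins and binds antioxidant response elements near genes for glutathione synthesis, thioredoxin recycling, quinone reduction and heme breakdown. Nfe2l1 is a related factor that is anchored in the endoplasmic reticulum and is best known for raising proteasome genes when proteasome activity is low. In endothelium Hmox1 and Nqo1 are known to respond to this pathway and to laminar flow. Most of this control acts on protein stability, which RNA counts do not measure.

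The letters TGACNNNGC, the core of the antioxidant response element, were searched on both strands from 250 bases before to 50 bases after annotated gene starts, in RefSeq sequences of build GRCm38.p6, to which the mm10 build named for these data corresponds. Of the 10 genes, 8 had such a window, and Hmox1 and Gclc did not. At least 1 match was found for 4 of the 8, against 14.0% of the 27025 genes with a window. In the lists described below, it was 9 of 26 other Nrf2 targets (34.6%) and 4 of 14 regulators and partners (28.6%). It was 2 of 21 other antioxidant enzymes (9.52%). Genes with several starts have several windows. Counted by window, 4 of the 14 windows of the 8 genes (28.6%) held a match, against 12.4% of all 32851 windows. The matches are shown to describe these genes. By log2 fold change Srxn1 was positive in Meis1-OE EC, with a 95% interval off 0. Nfe2l2, Gclm and Txnrd1 were negative, with 95% intervals that included 0. Capitals mark the match, and the sequence is that of the strand of the gene. In Srxn1, Gclm and Txnrd1 the match lay on the opposite strand, so the capitals are its reverse complement. The Gclm distance is counted from the start of its window. That start lies downstream of the first base of the Gclm position given below, so the match is nearer to that base.
Nfe2l2 (chr2:75704885-75704913, - strand, 240 to 232 bases before the start): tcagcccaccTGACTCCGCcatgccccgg
Gclm (chr3:122245413-122245441, + strand, 134 to 126 bases before the start): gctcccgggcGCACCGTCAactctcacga
Txnrd1 (chr10:82859104-82859132, + strand, 92 to 84 bases before 1 of its 3 starts): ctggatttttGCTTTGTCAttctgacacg
Srxn1 (chr2:152105542-152105570, + strand, bases 29 to 37 of the transcript): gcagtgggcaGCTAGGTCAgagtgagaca

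The Meis core TGACAG was searched in the same way, as was the composite of TGAT followed directly by TGACAG, to which Pbx and Meis proteins bind side by side and which contains the core. The core was in a window of 1 of the 8 genes, against 21.6% of all genes with a window. That gene was Nfe2l1, and its match was part of the full composite, which 69 of the 27025 genes (0.255%) held. It is shown because Meis1 is the factor that was overexpressed. These matches are descriptions of letters, and binding was not measured in these cells.
Nfe2l1 (chr11:96830041-96830070, - strand, 92 to 83 bases before the most upstream of its 5 starts, composite in capitals on the opposite strand): gttttctttgCTGTCAATCAaagtgacatc

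Total counts were between 34176592 and 47956569 per library. Meis1 was counted 135325 to 157828 times in Meis1-OE and 39 to 85 times in YFP-CTRL libraries. All 11 endothelial markers were tested, and their summed level, to which Pecam1, Cdh5 and Kdr gave most in YFP-CTRL, was 3585 to 4534 CPM in Meis1-OE and 4545 to 6340 CPM in YFP-CTRL. They did not share a direction: 6 were positive and 5 negative by log2 fold change, Vwf (3.12) and Cldn5 (1.81) rose and Tek (-0.78) fell at an adjusted p under 0.05 from edgeR. Among 10 macrophage markers, C1qa, C1qb, C1qc, Tyrobp and Adgre1 had 0 counts in every library (up to 3 counts remain possible), and the summed level of 69.8 to 106 CPM in Meis1-OE and 65.1 to 140.1 CPM in YFP-CTRL was nearly all Cd68. The summed level of 10 mesenchymal markers was 15.8 to 17.9 CPM in Meis1-OE and 34.9 to 54.2 CPM in YFP-CTRL. By group means Pdgfra made up most of it (11.8 and 32.7 CPM), but in YFP-CTRL C Acta2 (19.9 CPM) lay above Pdgfra (15.6 CPM). Pdgfrb had a positive log2 fold change (0.55, adjusted p = 0.344 from edgeR), and the collagens and Dcn were near 0. The part of such cells in the results was not tested. YFP-CTRL libraries differed in growth genes. The mean log2(CPM + 1) of 15 proliferation genes was 4.29, 5.26 and 6.44 in YFP-CTRL A, B and C, and 6.47, 6.45 and 6.51 in Meis1-OE A, B and C. YFP-CTRL C thus lay at the level of the Meis1-OE libraries, and results that change without it are given with both values. Its part in each result was not tested.

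Levels of the 10 genes are given as TMM-normalized counts per 1000000 counts (CPM), and the conditions were compared with edgeR's quasi-likelihood test over all 16065 genes with Benjamini-Hochberg adjustment. None of the 10 genes passed an adjusted p of 0.05, whereas 6.87% of all tested genes did. By log2 fold change 5 were higher and 5 were lower, with a median of -0.08 beside 0.01 over all tested genes. Osgin1, Nqo1 and Srxn1 had the largest positive values and Hmox1 the most negative value. In 3 genes every Meis1-OE library lay above every YFP-CTRL library, and in 1 gene below. Over all tested genes 17.2% were separated upward and 15.9% downward, or 33.1% in all. The same 4 genes had an unadjusted p under 0.05, as did 26.2% of all tested genes. The study itself compared these libraries with DESeq2. In the DESeq2 fit made here, 2 genes passed upward (Srxn1 and Osgin1) and 1 downward (Hmox1). Of all genes that DESeq2 tested, 6.21% passed upward and 6.14% downward. Without YFP-CTRL C, 3 passed upward (Keap1, Nqo1 and Srxn1) and 3 downward (Nfe2l1, Nfe2l2 and Hmox1), where 16.5% of all tested genes passed upward and 15.2% downward.

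**Figure D1:**
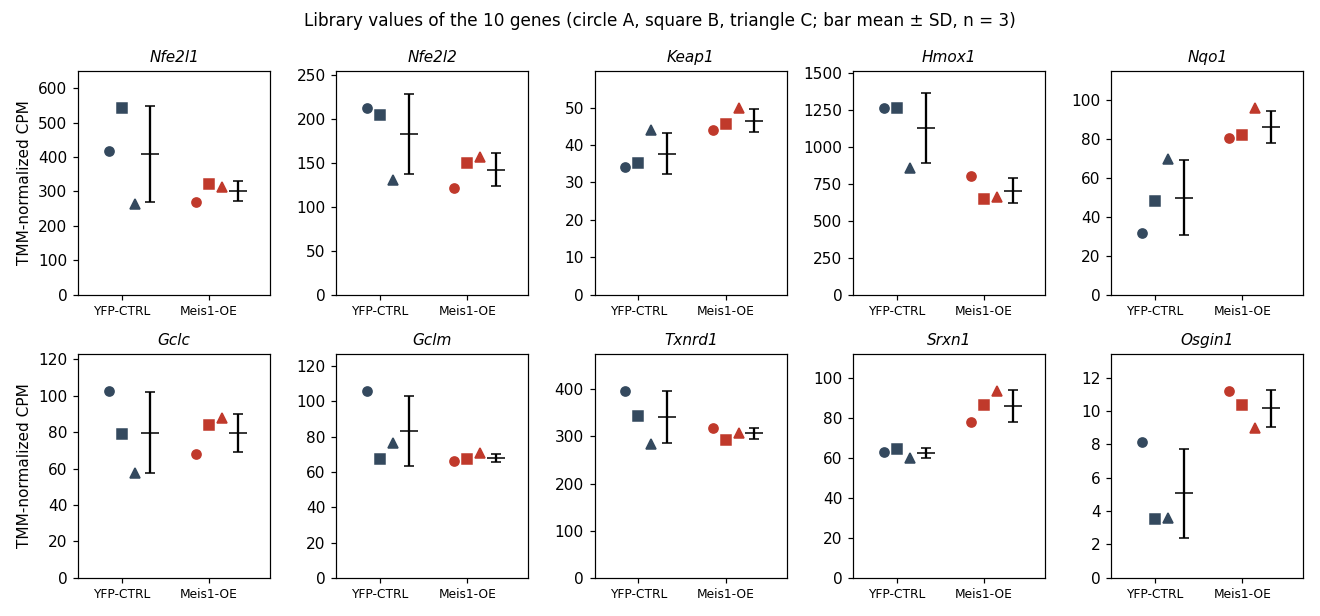
Level of each of the 10 genes in TMM-normalized CPM (vertical axis, from 0) in the 3 YFP-CTRL and 3 Meis1-OE libraries (circles A, squares B, triangles C), with mean ± SD beside each group. Hmox1 is lower and Nqo1, Srxn1 and Osgin1 are higher in all 3 Meis1-OE libraries than in any of YFP-CTRL, while in the other panels the groups overlap and the YFP-CTRL points are wider apart.

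**Figure D2:**
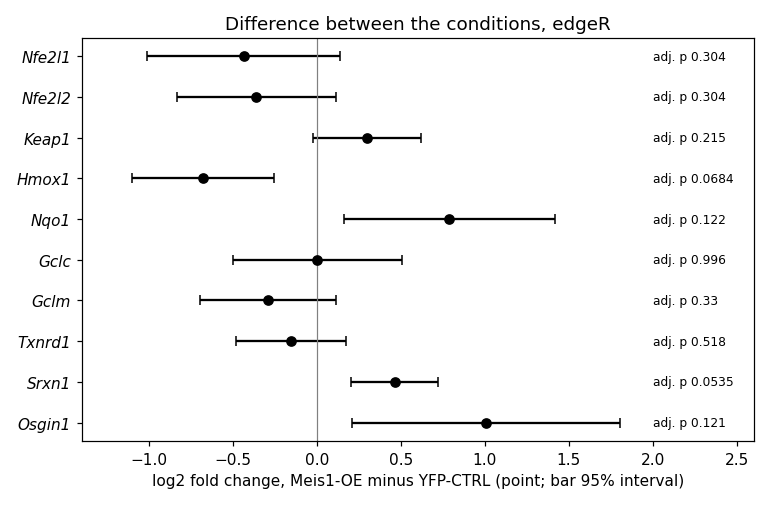
Log2 fold change of each gene, Meis1-OE minus YFP-CTRL (points), with the 95% interval from edgeR (bars) and the adjusted p at the right. The intervals of Hmox1, Nqo1, Srxn1 and Osgin1 lie off 0, yet the lowest adjusted p, that of Srxn1, is 0.0535.

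Of the regulators, Nfe2l1 (chr11:96817414-96829968), the membrane-anchored factor, was measured at 269, 322 and 314 CPM in the Meis1-OE libraries A, B and C, against 418, 542 and 264 CPM in YFP-CTRL A, B and C. YFP-CTRL C was the lowest of all 6 libraries, and the groups overlapped. From means of 302 ± 28.7 and 408 ± 139 CPM (SD, n = 3 each), edgeR gave a log2 fold change of -0.44, a 95% interval from -1.01 to 0.14 and an adjusted p of 0.304. Leaving out YFP-CTRL C gave -0.69 (adjusted p = 0.0147 from edgeR). A fit that took the library's proliferation score as a covariate gave -0.03 (adjusted p = 0.971 from edgeR). The Meis1-OE scores all lay between 6.45 and 6.51, so the slope of that fit rests almost wholly on the 3 YFP-CTRL libraries. This limit holds for every value with the covariate given below, and the part of growth in the differences was not tested.

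Nfe2l2 (chr2:75675513-75704663), the factor that Keap1 restrains, was at 122, 149 and 156 CPM in Meis1-OE A, B and C, compared with 213, 205 and 131 CPM in YFP-CTRL A, B and C. YFP-CTRL A and B were close to each other and above all other libraries, while C lay within the range of Meis1-OE. Its log2 fold change was -0.36 with a 95% interval from -0.84 to 0.12 (adjusted p = 0.304 from edgeR). This became -0.56 when YFP-CTRL C was dropped (adjusted p = 0.0117 from edgeR), and the covariate turned the sign, to 0.05 (adjusted p = 0.909 from edgeR).

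Keap1 (chr9:21229730-21239332), the adaptor that marks Nfe2l2 for degradation, was at 43.98, 45.5 and 49.9 CPM in Meis1-OE and at 34.1, 35.1 and 44.01 CPM in YFP-CTRL A, B and C. YFP-CTRL C lay just above Meis1-OE A, so the groups overlapped by that pair alone. At 0.30, the log2 fold change had a 95% interval from -0.02 to 0.62 (adjusted p = 0.215 from edgeR). The value was 0.41 when YFP-CTRL C was left out (adjusted p = 0.0166 from edgeR) and 0.11 with the covariate.

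**Figure D3:**
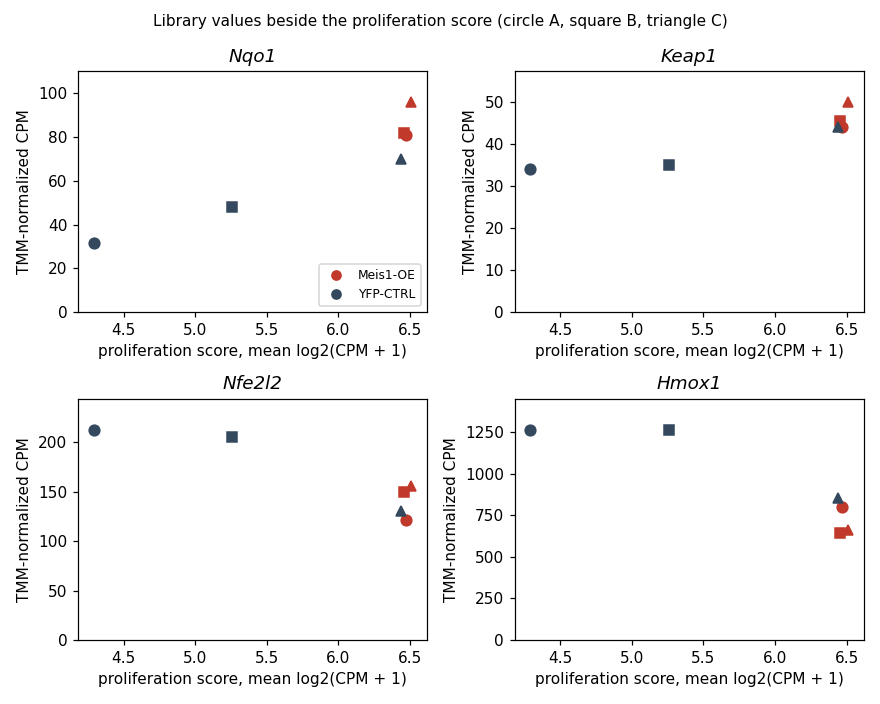
Levels of Nqo1, Keap1, Nfe2l2 and Hmox1 in TMM-normalized CPM (vertical axes, from 0) against the proliferation score of each library, the mean log2(CPM + 1) of 15 genes (horizontal axes), with Meis1-OE in red and YFP-CTRL in dark blue. YFP-CTRL A and B lie apart at scores of 4.29 and 5.26, and YFP-CTRL C lies beside the Meis1-OE points at 6.44.

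Of the targets, Hmox1 (chr8:75093618-75100593) encodes heme oxygenase, the inducible enzyme that breaks down heme. It was at 800.3, 646 and 664 CPM in Meis1-OE A, B and C, compared with 1262, 1262 and 854 CPM in YFP-CTRL A, B and C. All 3 Meis1-OE libraries were below all 3 YFP-CTRL libraries, although Meis1-OE A and YFP-CTRL C were close. With means of 703 ± 84.5 and 1126 ± 236 CPM (SD, n = 3 each), Hmox1 was 1.60-fold lower, a log2 value of -0.68 with a 95% interval from -1.10 to -0.25. The adjusted p was 0.0684 from edgeR and 0.0166 from DESeq2. Dropping YFP-CTRL C gave -0.85 (adjusted p = 0.00474 from edgeR), and the covariate brought the log2 fold change to -0.35 (adjusted p = 0.312 from edgeR).

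Nqo1 (chr8:107388225-107403205), which encodes a quinone reductase, was at 80.8, 82.0 and 95.9 CPM in Meis1-OE A, B and C. In YFP-CTRL A, B and C it was at 31.6, 48.2 and 70.0 CPM, the widest relative spread after that of Osgin1. Each Meis1-OE library was above each YFP-CTRL library, with YFP-CTRL C the nearest. Nqo1 was 1.73-fold higher, a log2 value of 0.79 with a 95% interval from 0.16 to 1.42 (adjusted p = 0.122 from edgeR). Dropping YFP-CTRL C raised it to 1.09 (adjusted p = 0.00843 from edgeR), and it was 0.53 when YFP-CTRL A was dropped and 0.25 with the covariate.

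Srxn1 (chr2:152105524-152111376) encodes sulfiredoxin, which restores overoxidized peroxiredoxins. Its levels were 77.7, 86.6 and 93.2 CPM in Meis1-OE A, B and C, against 62.6, 64.5 and 59.8 CPM in YFP-CTRL A, B and C. Here the YFP-CTRL libraries were close together and all 3 were below every Meis1-OE library. The log2 fold change of 0.46, or 1.38-fold higher, had a 95% interval from 0.20 to 0.72 and an adjusted p of 0.0535 from edgeR. DESeq2 gave an adjusted p of 0.0294, and edgeR gave 0.0187 without YFP-CTRL C and 0.0878 with the covariate, at log2 fold changes from 0.42 to 0.50. Scaled by library totals alone, it reached 0.60 (adjusted p = 0.0160 from edgeR), but there the median of all tested genes moved from 0.01 to 0.15 and Srxn1 was the only one of the 10 that passed, as 6.52% of all tested genes passed upward.

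Osgin1 (chr8:119425882-119446257), a target known as a growth inhibitor induced by oxidative stress, was the least counted of the 10 genes, with 143 to 511 counts. The 3 Meis1-OE libraries A, B and C held 11.2, 10.4 and 8.96 CPM, and YFP-CTRL A, B and C held 8.15, 3.51 and 3.57 CPM. Here YFP-CTRL A, not C, was the library nearest to Meis1-OE. The counting error of the lowest value, 3.51 CPM, spans 2.95 to 4.13 CPM (95% exact Poisson interval, for counting error only). The log2 fold change of 1.01, or 2.01-fold higher, had a 95% interval from 0.21 to 1.81 and an adjusted p of 0.121 from edgeR (0.0333 from DESeq2). The value was 1.51 when YFP-CTRL A was left out (adjusted p = 0.0114 from edgeR) and 1.72 when the covariate was fitted (adjusted p = 0.0294 from edgeR), and Osgin1 was the only one of the 10 that passed there, as 3.73% and 2.42% of all tested genes passed upward.

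Gclc (chr9:77754535-77794489) and Gclm (chr3:122245487-122267215) encode the catalytic and the modifier subunit of the enzyme that starts glutathione synthesis. Gclc was at 67.9, 83.8 and 87.6 CPM in Meis1-OE A, B and C, compared with 102, 78.7 and 57.8 CPM in YFP-CTRL A, B and C. The Meis1-OE values lay inside the YFP-CTRL range. Its log2 fold change was 0.00, with a 95% interval from -0.50 to 0.51, and its sign depended on the scaling and on which library was left out (adjusted p = 0.996 from edgeR). The covariate gave its largest value, 0.48 (unadjusted p = 0.0173 and adjusted p = 0.145 from edgeR). Gclm was at 66.4, 67.4 and 70.7 CPM in Meis1-OE and at 106, 67.5 and 76.6 CPM in YFP-CTRL A, B and C, so that the difference of the means rested mostly on YFP-CTRL A. Its log2 fold change was -0.29 (95% interval from -0.69 to 0.12, adjusted p = 0.330 from edgeR) and -0.09 without YFP-CTRL A, -0.41 without YFP-CTRL B and -0.35 without YFP-CTRL C. The deposited Gclm counts were not whole numbers, for a reason that was not tested, and its value is uncertain to that extent.

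Txnrd1 (chr10:82833951-82897724), the cytosolic thioredoxin reductase, was at 318, 293 and 308 CPM in Meis1-OE A, B and C, compared with 396, 344 and 283 CPM in YFP-CTRL A, B and C. The Meis1-OE libraries lay within the YFP-CTRL range. Txnrd1 had a log2 fold change of -0.15 with a 95% interval from -0.48 to 0.17 (adjusted p = 0.518 from edgeR), and it was -0.28 when YFP-CTRL C was left out (adjusted p = 0.0694 from edgeR) and 0.12 with the covariate.

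**Figure D4:**
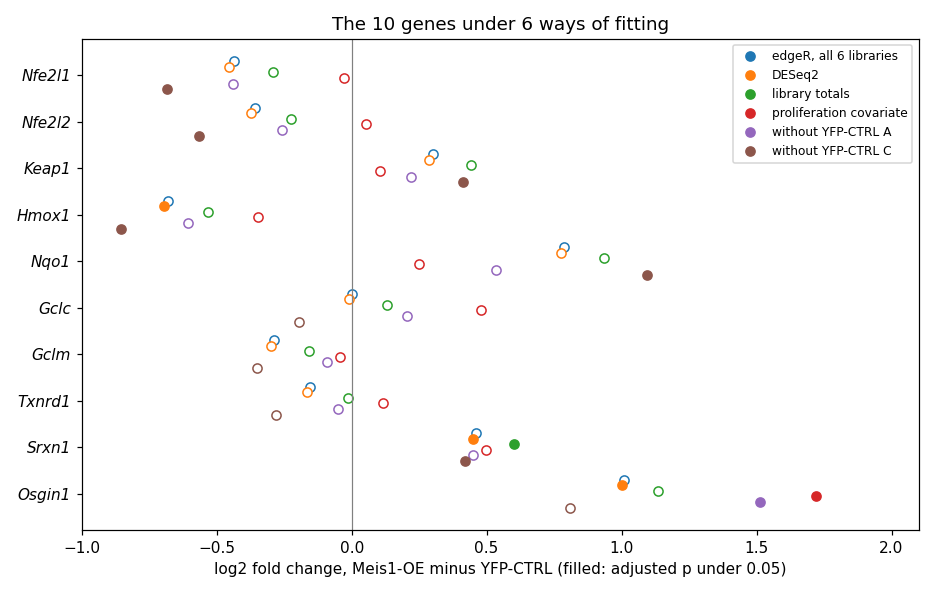
Log2 fold change of each of the 10 genes, Meis1-OE minus YFP-CTRL (horizontal axis), under 6 ways of fitting shown by color, filled where the adjusted p was under 0.05. Nfe2l1, Nfe2l2, Keap1 and Nqo1 are filled only without YFP-CTRL C, and Osgin1 only with DESeq2, with the covariate or without YFP-CTRL A.

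The targets thus did not share a direction, and no single order of the YFP-CTRL libraries held for all of them. To place the 10 genes among the rest of the pathway, 4 further lists were counted in the same fit. Of 30 other Nrf2 target genes, 29 were tested, 4 were higher and 1 was lower at an adjusted p under 0.05, where 4.14% of all tested genes were higher and 2.73% lower. Its median was 0.04 on the log2 scale, with 16 positive and 13 negative values.

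Aox1, an aldehyde oxidase, rose by a log2 fold change of 1.21 (adjusted p = 0.00948 from edgeR), from 9.27, 6.72 and 8.89 CPM in YFP-CTRL to 19.6, 18.4 and 19.5 CPM in Meis1-OE. Gstp1, a glutathione transferase, rose by 0.88 (adjusted p = 0.0102 from edgeR), from a mean of 72.1 ± 8.11 to 133 ± 8.18 CPM (SD, n = 3 each). Its counts were not whole numbers and near-identical copies exist, so the value is uncertain. Mgst1, a membrane-bound glutathione transferase, rose by 0.75, and G6pdx, which feeds NADPH into glutathione and thioredoxin recycling, rose by 0.45 (adjusted p = 0.0408 and 0.0435 from edgeR). Abcc1, an exporter of glutathione conjugates, fell by 0.50 on the log2 scale (adjusted p = 0.0476 from edgeR). In all 5 genes the groups did not overlap. These calls were not stable to the loss of single libraries: none of the 4 higher genes passed without Meis1-OE B or without Meis1-OE C, 2 passed without Meis1-OE A and 1 without YFP-CTRL B. In those fits 0.701%, 0.766%, 2.02% and 1.24% of all tested genes were higher. Without YFP-CTRL C, 9 genes of the list were higher and 6 lower, beside 16.5% and 15.2% of all tested genes. Abcc1 passed without YFP-CTRL C and in no other fit that left a library out. In those other fits 0.0975% to 2.63% of all tested genes were lower. With single libraries left out its log2 fold change lay between -0.57 and -0.44. Its adjusted p was 0.129 on library totals and 0.0811 without a filter, both from edgeR, and its counts were not whole numbers.

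Slc7a11 was singled out after its values were seen, as it had the largest difference of the list without passing the test. It encodes the cystine importer that supplies glutathione synthesis, and it was at 47.8, 52.7 and 53.8 CPM in Meis1-OE A, B and C, compared with 525, 366 and 51.3 CPM in YFP-CTRL A, B and C. YFP-CTRL C lay among the Meis1-OE libraries, and YFP-CTRL A and B stood far above them. The deposited Slc7a11 counts were not whole numbers. Its log2 fold change was -2.61 (adjusted p = 0.0719 from edgeR, 0.0421 when no filter was applied, and 0.0208 from DESeq2). Dropping YFP-CTRL C gave -3.12 (adjusted p = 2.96e-04 from edgeR), and the value was -0.30 when the covariate was fitted (adjusted p = 0.739 from edgeR).

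Of 16 regulators and partners of the Nfe2l factors, 14 were tested, and edgeR called 0, beside 6.87% of all tested genes. At an unadjusted p under 0.05 there were 2, both lower, beside 26.2%, and DESeq2 called 1 lower, beside 6.14%. Nfe2 had no count in any library, and Nfe2l3 had at most 3. Of the 14, 10 had a negative log2 fold change, with a median of -0.20. Over all 16065 tested genes 7880 were negative, with a median of 0.01. Sqstm1 and Mafk were also singled out after their values were seen. Sqstm1 encodes p62, which competes with Nfe2l2 for Keap1, and it was at 689.5, 846 and 835 CPM in Meis1-OE and at 2857, 2762 and 586 CPM in YFP-CTRL A, B and C. Mafk, a small Maf partner, was at 76.4, 65.1 and 67.7 CPM and at 152, 137 and 60.6 CPM. As with Slc7a11, YFP-CTRL C lay with or below the Meis1-OE libraries. The log2 fold changes were -1.39 for Sqstm1 (adjusted p = 0.148 from edgeR, 0.0270 from DESeq2) and -0.74 for Mafk (adjusted p = 0.188 from edgeR). Both passed without YFP-CTRL C (adjusted p = 4.67e-04 and 0.00137 from edgeR), and with the covariate both changed sign, to 0.12 and 0.08. Without YFP-CTRL C, 5 of the regulators were lower and 0 were higher, in a fit in which 15.2% of all tested genes were lower and 16.5% higher.

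Of 24 other antioxidant enzymes, 22 were tested and 1 (4.55%) rose, near the 4.14% of all tested genes. This was Prdx5, a peroxiredoxin, at 92.9, 100.3 and 96.7 CPM in Meis1-OE and 51.7, 55.8 and 66.6 CPM in YFP-CTRL, a log2 fold change of 0.74 (adjusted p = 0.0201 from edgeR). No gene of this list passed downward with edgeR, and 4 higher and 5 lower genes had an unadjusted p under 0.05, beside 26.2% of all tested genes in either direction. DESeq2 called 1 higher and 3 lower, beside 6.21% and 6.14% of the genes it tested. Prdx5 did not pass when any single Meis1-OE library or YFP-CTRL B was left out (adjusted p up to 0.1299 from edgeR). In those fits 0.701% to 2.02% of all tested genes were higher. Without YFP-CTRL C, 7 of this list were higher and 6 were lower, where the shares of all tested genes were 16.5% and 15.2%.

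Of 10 genes for enzymes that produce oxidants or nitric oxide, 6 were tested and 1 fell, where 2.73% of all tested genes fell. Nox4, the main NADPH oxidase of endothelium, was at 55.3, 51.5 and 52.2 CPM in Meis1-OE and at 115, 207 and 107 CPM in YFP-CTRL A, B and C. Every Meis1-OE library lay below every YFP-CTRL library, including C. It fell by 1.43 on the log2 scale (adjusted p = 0.0221 from edgeR). The adjusted p from edgeR was 0.0894 to 0.124 without any one Meis1-OE library, where 0.0975% to 0.417% of all tested genes were lower. Nox4 passed without YFP-CTRL A, B or C (adjusted p = 0.0281, 0.0237 and 0.00431 from edgeR). In those fits 2.63%, 0.401% and 15.2% of all tested genes were lower. With the covariate the adjusted p was 0.0754 from edgeR at a log2 fold change of -1.33. The deposited Nox4 counts were not whole numbers.

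**Figure D5:**
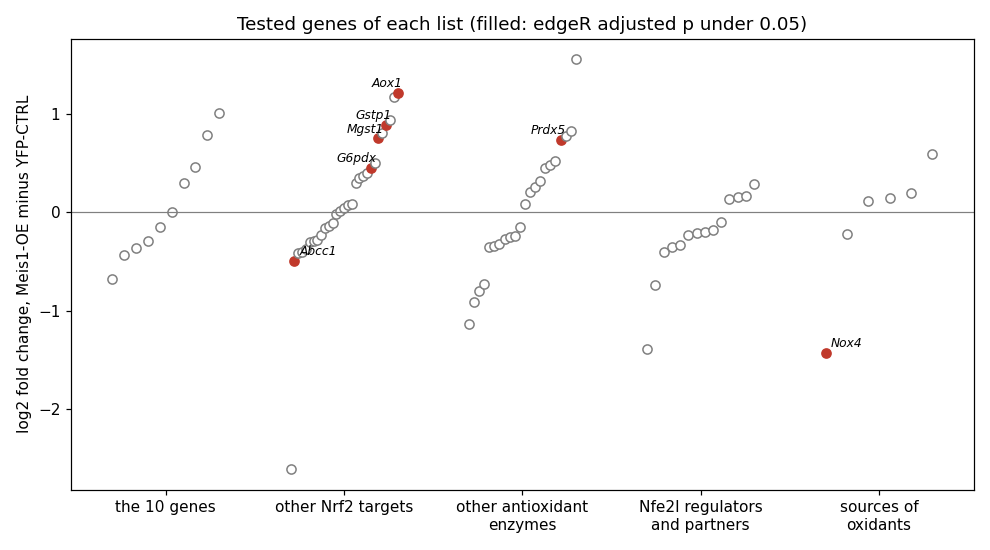
Log2 fold change, Meis1-OE minus YFP-CTRL (vertical axis), of every tested gene of the 10-gene set and of the 4 other lists, ordered within each list, with filled named points where edgeR's adjusted p was under 0.05. The 10 genes lie between -0.68 and 1.01 with no filled point, and the lowest open point among the other Nrf2 targets is Slc7a11 at -2.61.

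Genes whose values moved most like those of 3 of the 10 genes were found by the root mean square difference of centred log2(CPM + 1) over the 6 libraries, among 10221 genes with a mean of at least 5 CPM. Nearest to Nfe2l1 were Aldh3a2, Pdhb and March6, with differences of 0.0607, 0.0630 and 0.0655. Nearest to Nfe2l2 were B4galt7, 2410131K14Rik and Tgif1 (0.0341, 0.0401 and 0.0420), and nearest to Hmox1 were Gramd4, Dst and Adat2 (0.0616, 0.0648 and 0.0686). None of the genes on the pathway lists was among these 9. As the lists hold few of the 10221 genes, their absence says little about movement with the pathway.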

How the data were processed

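RNA-seq of 6 libraries of mouse aortic EC was analysed, 3 Meis1-OE and 3 YFP-CTRL. Between 300 and 400 ng of total RNA per sample was sent for ribodepleted sequencing. The deposited values are estimated counts, without normalization by the authors, for 54429 genes in 1 table. The submitters' processing notes name build mm10. The aligner, the counting tool and the use of strand are not given in the sources used here. Conditions came from the labels. Columns carry letters (A to C) that no label ties to a replicate number, so libraries were compared without pairs.

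Counts were rounded to whole numbers and fitted in R 4.3.3 with edgeR 4.0.16 (filterByExpr, TMM, quasi-likelihood test, Benjamini-Hochberg over 16065 genes, threshold 0.05). Standard errors and 95% intervals came from the F statistic. Scores used a pseudocount of 1. The fit was tested on simulated data. Alternatives were DESeq2 1.42.0, its size factors, scaling by totals alone, all genes unfiltered, a floor of 10 counts per library, each library left out, the column letter as a block and the proliferation score as a covariate. Figures used matplotlib 3.10.9.

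All 10 genes were named, with Meis1, genes of the other lists past the threshold (up to 8 a list) and the 3 genes most like Nfe2l1, Nfe2l2 and Hmox1. The genes and lists were chosen with earlier results of these data known. Motif positions were counted from the annotated start of each window, which for Gclm is not the first base of the gene position given.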

Additional observations from a re-analysis of the deposited data

How the results depend on the processing

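With all 6 libraries in edgeR, 0 of the 10 genes were higher and 0 lower. This held with DESeq2's size factors, without a filter, with at least 10 counts in every library and with the column letter as a replicate block. On library totals 1 was higher (Srxn1, 0.60), with DESeq2 2 were higher (Srxn1 at 0.45 and Osgin1 at 0.9998) and 1 lower (Hmox1, -0.69), and with the proliferation covariate 1 was higher (Osgin1, 1.72). Leaving out single libraries gave 0 to 3 higher and 0 to 3 lower, beside 0.701% to 16.5% and 0.0975% to 15.2% of all tested genes. The 3 higher and the 3 lower both came from the fit without YFP-CTRL C, where these shares were largest. The log2 fold changes then ranged from -0.69 to -0.17 for Nfe2l1, -0.56 to -0.26 for Nfe2l2, 0.22 to 0.41 for Keap1, -0.85 to -0.58 for Hmox1, 0.53 to 1.09 for Nqo1, -0.19 to 0.21 for Gclc, -0.41 to -0.09 for Gclm, -0.28 to -0.05 for Txnrd1, 0.40 to 0.53 for Srxn1 and 0.81 to 1.51 for Osgin1. Signs turned for Gclc with DESeq2's size factors (-0.015), with DESeq2 (-0.0091) and without Meis1-OE B (-0.03), Meis1-OE C (-0.07) or YFP-CTRL C (-0.19). They also turned with the covariate for Nfe2l2 (0.052), Txnrd1 (0.12), Sqstm1 (0.12) and Mafk (0.080). The cause was not tested.

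Of the other Nrf2 targets, 4 higher became 2 with the replicate block and with the covariate and 0 to 9 with single libraries left out. The 1 lower became 0 with DESeq2's size factors, on library totals, with at least 10 counts, with the replicate block and with the covariate. It became 3 with DESeq2, and 0 to 6 with libraries left out. Without a filter it stayed at 1, but that gene was Slc7a11, and Abcc1 did not pass (adjusted p = 0.0811 from edgeR). Of the regulators, 1 was lower with DESeq2 and 0 to 5 with libraries left out. Of the other antioxidant enzymes, 3 were lower with DESeq2 and 1 with the covariate, and leaving out libraries gave 0 to 7 higher and 0 to 6 lower. Of the oxidant sources, the covariate gave 1 higher and 0 lower, and leaving out libraries gave 0 to 1 lower. Of all tested genes, 3.39% were higher and 1.18% lower with the replicate block, and 2.42% and 1.97% with the covariate. With DESeq2 these shares were 6.21% and 6.14%. With single libraries left out they were 0.701% to 16.5% higher and 0.0975% to 15.2% lower.

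Over all genes, edgeR called 665 higher and 438 lower. On library totals it was 1048 and 179, with DESeq2 1128 and 1115, with the covariate 388 and 317, with the replicate block 544 higher and 189 lower, and without single libraries 115 to 2717 higher and 16 to 2498 lower. Deviations of same-letter libraries from their group means correlated at 0.245, 0.190 and 0.0809 (A, B and C) across genes, which are not independent replicates. Meis1-OE C correlated best with YFP-CTRL B (0.249), while the other different-letter correlations were negative, from -0.301 to -0.0275. These values did not settle whether the letters mark pairs. As no label ties them to replicates, they were not taken as pairs. Counting error was computed for the lowest count of the 10 genes alone (Osgin1 in YFP-CTRL B), and was smaller than the spread of the YFP-CTRL libraries.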
